A study of Mus musculus with 4 samples.

Results

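The genes described here are the long noncoding RNA gene Lncenc1, the coding gene closest to it, Enc1, its reported RNA-binding partners Ptbp1 and Hnrnpk, and the Ptbp1 paralogues Ptbp2 and Ptbp3. They were found by gene symbol and make up 6 of the 20296 genes in the table, and all 6 were tested. RNA was compared between naive mouse embryonic stem cells (nESC), held in 2i/LIF medium, and epiblast-like stem cells (EpiLSC), taken on day 3 in N2B27 medium with activin A at 20 ng/ml and bFGF at 12 ng/ml. The cell lines R1 and E14TG2a (E14) each gave 1 sample per state, 2 in all for nESC and 2 for EpiLSC, and the labels name no genetic change in any of them. The values came from a table of 1 comparison, so the level in each single sample was not analysed here. Each line was sampled 1 time per state, so the errors do not measure the spread between repeat cultures of a line. Whether the authors' model took the line into account is not stated. The medium changed together with the state, and effects of the 2 cannot be told apart.

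Lncenc1 is a nuclear long noncoding RNA of naive embryonic stem cells that the series title ties to glycolysis. PTBP1 is a protein that binds pyrimidine-rich RNA and represses the use of many exons, PTBP2 is its paralogue of the nervous system, and PTBP3 is a more widely made paralogue. During neuronal differentiation PTBP1 gives way to PTBP2, and PTBP1 is known to keep PTBP2 low by the skipping of an exon. HNRNPK binds C-rich RNA and DNA through KH domains. Enc1 encodes a BTB-kelch protein of the ectoderm and nervous system, a class many of whose members hand proteins to the CUL3 ubiquitin ligase.

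The sequence of Lncenc1 is shown first because both reported partners choose RNA by its letters. In the GENCODE M21 transcript Lncenc1-201, of 2726 bases, the word TCTT occurred 25 times, CTCTCT 5 times and CCCC 7 times, with overlapping matches counted and only the transcript strand read. The density of TCTT, 9.17 per kilobase, was above that of 83.9% of 6876 annotated long noncoding transcripts of 0.5 to 2 times its length. For CTCTCT, at 1.83 per kilobase, 90.3% of these transcripts were lower, and for CCCC, at 2.57 per kilobase, 38.0% were lower. Some match was common in these transcripts: nearly all held TCTT, 70.9% held CTCTCT and 96.9% held CCCC. The 150 bases with the most matches ran from base 2234 to base 2383, near the 3′ end, and held TCTT 6 times and CTCTCT 4 times. These 4 matches of CTCTCT, of the 5 in the transcript, overlap in a single unbroken CT run and are not separate sites. They are given 5′ to 3′ as DNA letters with the matches in capitals.
Lncenc1-201: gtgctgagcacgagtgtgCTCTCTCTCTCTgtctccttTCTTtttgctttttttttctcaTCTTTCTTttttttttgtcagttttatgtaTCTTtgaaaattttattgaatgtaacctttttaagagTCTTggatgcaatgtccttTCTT

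Promoter windows from RefSeq (GRCm38.p6, 250 bases before to 50 after the start) were matched for 4 of the genes, namely Lncenc1, Ptbp1, Ptbp2 and Hnrnpk. The windows of Lncenc1 and Ptbp2 are shown because they are the least and the most GC-rich of the 4. That of Lncenc1 lies at chr13:97434720-97435019 on the plus strand and had 42.3% G and C and 4 CpG dinucleotides, against medians of 52.7% and 7 over 32851 windows. The window of Ptbp2, at chr3:119783339-119783638 on the minus strand, had 74.7% G and C and 36 CpG. Ptbp1 had 58.3% and 22 CpG, and Hnrnpk 70.7% and 40 CpG. None of CAAGGTCA, ATGCAAAT, GGGTGTGG, TTCNNNGAA or TAATCC was found on either strand in any of the 4 windows, and 1.56%, 1.74%, 3.56%, 8.30% and 7.06% of all windows held them. Both are printed 5′ to 3′ with CpG in capitals.
Lncenc1: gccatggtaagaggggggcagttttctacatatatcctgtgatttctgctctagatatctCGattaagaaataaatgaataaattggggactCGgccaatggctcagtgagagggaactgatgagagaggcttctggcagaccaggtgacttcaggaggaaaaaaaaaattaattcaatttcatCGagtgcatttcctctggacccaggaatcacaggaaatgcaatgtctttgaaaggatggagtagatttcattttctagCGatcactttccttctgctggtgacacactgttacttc
Ptbp2: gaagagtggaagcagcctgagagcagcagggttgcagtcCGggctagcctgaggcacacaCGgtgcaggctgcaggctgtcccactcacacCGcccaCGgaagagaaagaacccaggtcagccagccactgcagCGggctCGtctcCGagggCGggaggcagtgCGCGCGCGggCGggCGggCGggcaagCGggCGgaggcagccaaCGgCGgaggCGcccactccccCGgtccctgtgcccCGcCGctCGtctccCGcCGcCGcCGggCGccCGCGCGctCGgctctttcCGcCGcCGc

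The table gave 1 mean normalized count per gene, a log2 fold change, its standard error (SE) and p-values. Positive log2 values were taken as higher in EpiLSC, because all 12 markers of the naive state on a fixed list then fell and all 10 markers of the formative epiblast rose. Those 2 lists set the direction and so are no evidence for it. A gene was called when its adjusted p was under 0.05 (DESeq2 Wald test, Benjamini-Hochberg), which held for 13.9% of 16361 genes tested, with 7.67% called higher and 6.23% called lower in EpiLSC. Of the 6 genes described here 1 rose, 1 fell and 4 were not called. The median SE was 0.68 over the 4949 genes whose mean reached 1000. An implied level in each state was obtained by splitting the mean by the fold change, and its 95% interval covers the error of the fold change only.

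**Figure D1:**
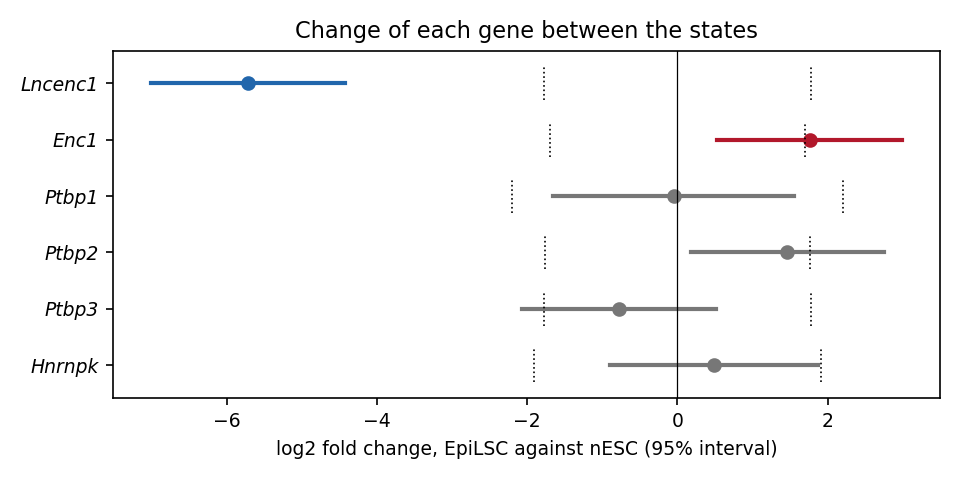
Log2 fold change of each gene (horizontal axis, EpiLSC against nESC) with its 95% interval as a bar. Blue fell, red rose and grey was not called; dotted ticks mark the smallest change that would have been called at that gene's SE. Lncenc1 lies far beyond its tick at -5.72, Enc1 just beyond its own at 1.76, and Ptbp2 at 1.46 just inside.

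Lncenc1 was an abundant RNA in nESC and a scarce one in EpiLSC. Its implied level was 12213 normalized counts in nESC and 231 in EpiLSC, the latter with a 95% interval of 95.5 to 551. In the authors' deposited table Lncenc1 (ENSMUSG00000078952.8) had a mean of 6222 and fell by 5.72 in log2 units (SE 0.66, adjusted p 1.31e-15 by DESeq2). That is 52.8-fold, with a 95% interval of 21.6 to 129. Whether the authors' fold changes were shrunken towards 0 is not stated, so each fold and each level implied from it holds for the values as deposited. Less RNA per cell and fewer cells that make the RNA cannot be told apart in such bulk samples. Among 1697 genes with a mean within 2-fold of that of Lncenc1, 5.83% were called, and the median SE was 0.67.

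The long noncoding set was taken by GENCODE biotype, which also places a few genes known to encode proteins in it, such as Cct6a. Lncenc1 had the smallest p of its 1543 tested genes, of which 55 rose and 129 fell, and was 46th by p among all genes. It ranked 10th of this set by level per kilobase of exon in nESC (3700) and 198th in EpiLSC (70.1). Among all genes with a length it was 287th in nESC and 8108th in EpiLSC. It held 1.35% of the summed level of the set in nESC and 0.0327% in EpiLSC. A few genes weigh heavily in that sum, such as Malat1 (an implied 360944 in nESC) and Gm26917 (152439). The log2 change of Gm26917 had an SE of 3.00. The log2 fold change was lower for 59 other genes of the set, of which 53 were called. These were scarcer: the implied EpiLSC level was under 3 in 56 of them, and the highest implied nESC level among them, that of 1700097N02Rik, was 807. Lncenc1 stood 15.1 times above that.

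**Figure D2:**
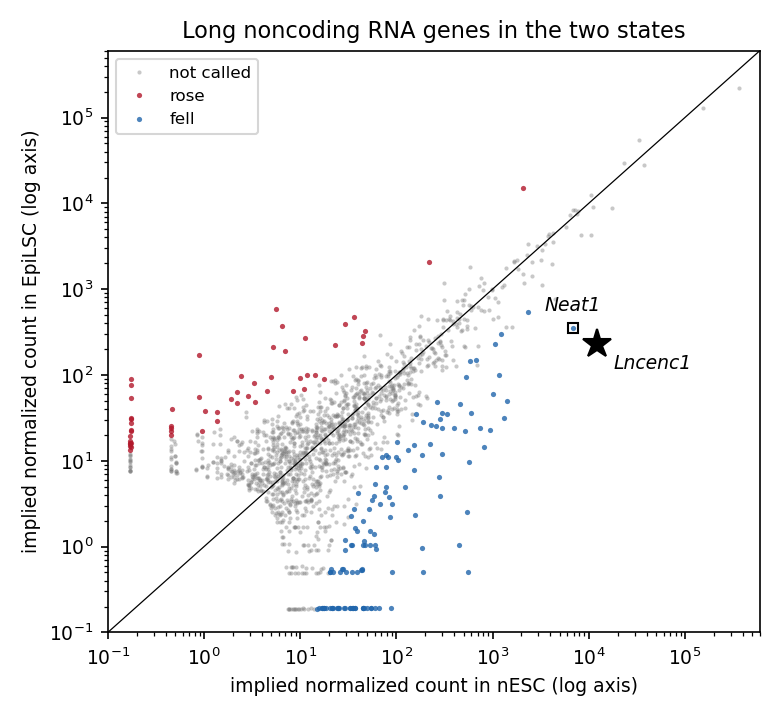
Implied normalized count of 1543 genes with a long noncoding biotype in nESC (horizontal) and EpiLSC (vertical), both on log axes, 1 point per gene, with the line of equal levels. Lncenc1 (star, 12213 and 231) and Neat1 (square, 6934 and 353) stand apart from the other abundant genes, most of which lie near the line; rows of points at the lower and left edges are genes with almost no reads in 1 state.

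The genes most like Lncenc1 were found by the distance between log2 implied levels in nESC and in EpiLSC, over the 2 states. The 5 nearest were Nid1 (nidogen, a basement membrane protein; distance 0.33), the zinc finger gene Zfp42, one of the naive markers that set the direction (0.46), Spp1 (osteopontin; 0.51), the threonine dehydrogenase gene Tdh (0.76) and 2410141K09Rik (0.83). Their implied levels ran from 9856 to 16932 in nESC and from 169 to 394 in EpiLSC. The log2 change in the authors' deposited table was -5.83 for Nid1 (SE 0.69) and -6.38 for Spp1 (SE 0.64), and both were called. No long noncoding gene came as close: the nearest was Neat1, the RNA scaffold of nuclear paraspeckles, at a distance of 1.02. That set holds only 1543 of the 16361 genes tested, and Lncenc1 ranked 17th in it by mean. Fewer genes could therefore lie near it. Neat1 fell by 4.30 (SE 0.63, adjusted p 6.88e-10 by DESeq2) in the authors' deposited table, from an implied 6934 to 353. The next were AY036118 (2.26), Gm20939 (2.68), Platr14 (2.97) and Snhg20 (3.02), all more than 2 log2 units away.

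Enc1 moved the opposite way to Lncenc1. Its implied level was 1663 normalized counts in nESC (95% interval 815 to 2987) and 5640 in EpiLSC (4315 to 6488). In the authors' deposited table Enc1 (ENSMUSG00000041773.7) had a mean of 3651 and rose by 1.76 in log2 units (SE 0.63, adjusted p 0.0386 by DESeq2), which is 3.39-fold with a 95% interval of 1.44 to 7.96. Changes of at least 1.70 would have been called at this SE, so Enc1 lay just past the threshold. Tested against a 2-fold change in place of no change it was not called (adjusted p 1, Wald test). Over its alternatives the adjusted p of the Wald test ranged from 0.0392 to 1. These values were recomputed here from the deposited log2 changes, SEs or p-values. Per kilobase of exon, Lncenc1 stood 10.5 times above Enc1 in nESC, and Enc1 17.0 times above Lncenc1 in EpiLSC.

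The genes around the pair did not move as a block. In the GENCODE order the 2 genes lie on the same strand with C430039J16Rik and Gm33447 between them. C430039J16Rik had a mean of 2.17 in the authors' deposited table and no adjusted p, and Gm33447 was not analysed here. On the far side of Enc1 neither Gfm2, a mitochondrial translation factor gene (0.27, SE 0.62), nor Nsa2 beyond it (-0.18, SE 0.62) was called in the authors' deposited table. On the far side of Lncenc1 the first tested gene was Gm10260 (-0.86, SE 1.02 in the authors' deposited table), which was not called. Arhgef28, a guanine nucleotide exchange factor gene, was the next tested gene and rose by 2.89 (SE 0.76, adjusted p 0.00195 by DESeq2) in the authors' deposited table. No exon of another gene in this stretch overlapped an exon of Enc1 or Lncenc1 in the annotation.

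**Figure D3:**
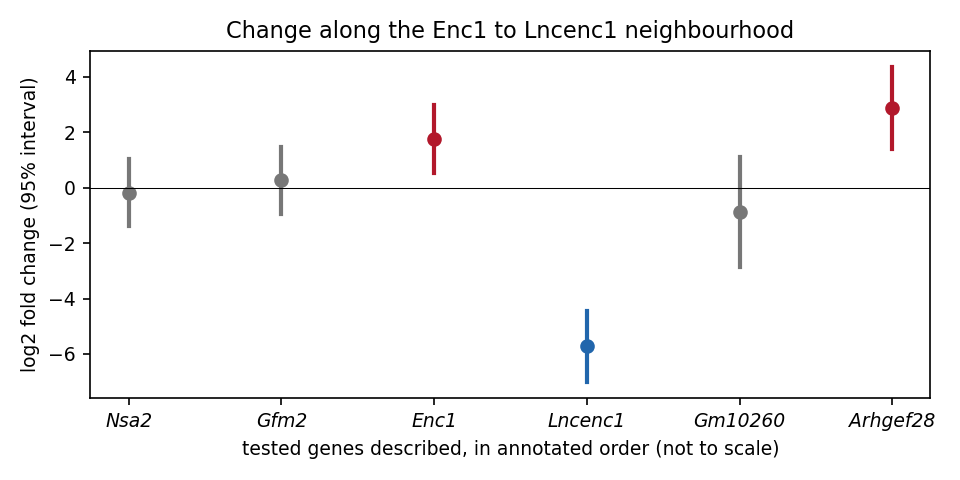
Log2 fold change (vertical, EpiLSC against nESC) with 95% intervals for the tested genes described around Enc1 and Lncenc1, in annotated order with distances not to scale. Lncenc1 (-5.72) fell, Enc1 (1.76) and Arhgef28 (2.89) rose, and the 3 grey genes were not called.

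Of the polypyrimidine tract binding proteins none was called, and the 3 paralogues had log2 fold changes of different sign. Ptbp1 stood at an implied 6225 normalized counts in nESC (95% interval 3112 to 9283) and 6010 in EpiLSC (2952 to 9123). The authors' deposited table put its log2 change at -0.05 (SE 0.82, adjusted p 0.991 by DESeq2). The 95% interval ran from -1.65 to 1.55, so a change of up to 3.15-fold lower or 2.93-fold higher lies within it. Its SE was above that of 93.9% of 1724 genes with a mean within 2-fold, the least precise of the 6 genes.

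Ptbp2 had 3033 normalized counts implied in nESC (1478 to 5342) and 8371 in EpiLSC (6061 to 9925). Its log2 fold change was 1.46 (SE 0.65), with an unadjusted p of 0.0252 and an adjusted p of 0.138 by DESeq2 in the authors' deposited table. The interval of the fold, 1.13 to 6.71, lay above 1, but at this SE a log2 change of 1.77 was needed for a call. Ptbp3 had an implied 10145 in nESC (6623 to 12966) and 5914 in EpiLSC (3093 to 9436). In the authors' deposited table its log2 change was -0.78 (SE 0.66, adjusted p 0.632 by DESeq2), with an interval of -2.07 to 0.51.

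Per kilobase of exon, Ptbp1 held 43.8% of the summed level of the 3 paralogues in nESC, Ptbp3 45.2% and Ptbp2 11.0%. In EpiLSC the shares were 42.7% for Ptbp1, 26.6% for Ptbp3 and 30.7% for Ptbp2. The share of Ptbp2 had a range of 5.69% to 17.9% in nESC and 24.3% to 34.4% in EpiLSC when its own fold change was moved over its 95% interval. With lengths taken from the longest transcript the share of Ptbp2 was 17.9% in nESC and 42.8% in EpiLSC. These shares are descriptions with no test. The table counts genes and not isoforms, so the exon choices that the proteins make were not analysed here.

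Among 10 other proteins of pyrimidine tracts 1 was called, near the background share. It was Raver2, a partner protein of PTBP1, at an implied 232 normalized counts in nESC and 1586 in EpiLSC. Raver2 rose by 2.78 in log2 units in the authors' deposited table (SE 0.64, adjusted p 0.00024 by DESeq2), a call lost against a 2-fold change and with Holm adjustment. Its paralogue Raver1 was not called (-0.29, SE 1.14 in the authors' deposited table). The median log2 fold change of the 10 genes was -0.01, against 0.02 over all genes tested. Matr3, U2af1, U2af2, Tia1, Tial1, Elavl1, Puf60 and Khsrp, the others, ran from -0.48 (U2af1) to 1.02 (Tia1) in the authors' deposited table, and none was called.

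Hnrnpk was the most abundant of the 6 genes and 45th of all genes by mean. Its implied level was 34623 normalized counts in nESC (17856 to 54057) and 48310 in EpiLSC (28877 to 65077). The authors' deposited table gave a mean of 41467 and put the log2 change at 0.48 (SE 0.71, adjusted p 0.881 by DESeq2). Its interval of -0.90 to 1.87 lay within a 4-fold change either way, as did that of Ptbp1, and a log2 change of 1.91 was needed for a call. Of its relatives with KH domains that bind poly(C), Pcbp1 (-0.02, SE 0.74) and Pcbp2 (0.00, SE 0.79) were close to 0 in the authors' deposited table. Pcbp4 (2.08, SE 1.17) and Pcbp3 (1.06, SE 0.81) had higher values in that table and were not called either.

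The other hnRNP genes, which package and process nuclear RNA, gave no call. None of 20 rose or fell by the DESeq2 Wald test, and the count with p under 0.05 before adjustment was 0. All had a mean of 1000 or more, a range in which 6.41% of 4949 genes were called. Their median log2 fold change was 0.24, with 16 above 0 and 4 below. The values ran from -0.34 (Hnrnpul1, SE 0.73) to 0.85 (Hnrnpll, SE 0.73) in the authors' deposited table, and the smallest p belonged to Hnrnph3 (0.78, SE 0.61). Hnrnpk, at 0.48, lay inside this range.

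**Figure D4:**
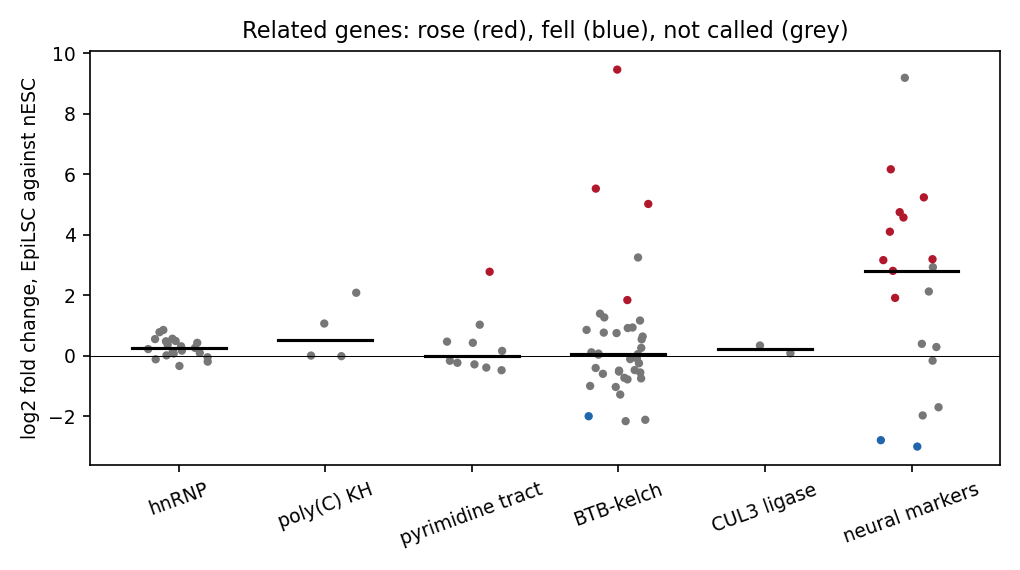
Log2 fold change (vertical, EpiLSC against nESC) of each tested gene in 6 lists, 1 point per gene with the list median as a bar. The 20 hnRNP genes sit in a band from -0.34 to 0.85, whereas BTB-kelch genes and neural markers spread widely around medians of 0.04 and 2.80. The lists differ in abundance: a mean of 1000 or more was reached by all 20 hnRNP genes. Of the 38 BTB-kelch genes 10 reached it, and of the 19 neural markers 3.

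Enc1 was 1 of several BTB-kelch genes that rose. Of 38 other tested genes of that class 4 rose (3 after recentring on the median of all genes, 2 when the mean had to reach 100) and 1 fell, a share near the background, and their median was 0.04. In the authors' deposited table the log2 change was 5.02 for Klhl23 (SE 0.74), 9.46 for Klhl14 (SE 1.62), 5.53 for Klhl4 (SE 1.16) and 1.84 for Klhl7 (SE 0.68). The implied nESC levels of Klhl14 (0.48) and Klhl4 (1.88) were under 3 normalized counts, so their folds rest on few reads. Klhl23 went from an implied 52.5 to 1703 and Klhl7 from 1357 to 4854. Kbtbd11 fell, from an implied 1341 to 335. The CUL3 ligase genes Cul3 (0.34, SE 0.68) and Rbx1 (0.08, SE 0.62) were not called in the authors' deposited table.

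Enc1 and Ptbp2 are both known from neurons, so a fixed list of 22 neural markers was read beside them. Of 19 tested markers 9 rose and 2 fell, where 7.67% and 6.23% of all genes did, with a median log2 fold change of 2.80. The counts were 4 and 2 when the mean had to reach 100, 5 and 0 against a 2-fold change, and 4 and 0 with Holm adjustment. Their summed implied level was 10944 in nESC and 15034 in EpiLSC. Most of that sum came from Nes, an intermediate filament gene of neural precursors (929 and 8486), Stmn2 (4655 and 670) and Elavl2 (2766 and 2466). Elavl2 was not called. Elavl3 rose by 5.24 (SE 0.88) and Snap25, a synaptic protein gene, by 4.57 (SE 0.77), while Stmn2 (-2.80, SE 0.62) and Ncam1 (-3.01, SE 0.72) were called lower by the authors' deposited table. The neural tubulin gene Tubb3 (0.29, SE 1.11) and the neural plate factor gene Sox1 (-1.98, SE 1.29) were not called in the authors' deposited table. Syt1 and Rbfox3, genes of mature neurons, rose from implied nESC levels under 3 to 94.4 and 59.0 in EpiLSC. Of the neurogenic bHLH genes, Neurod1 rose from an implied 7.79 to 134, while Neurog1 and Neurog2 had no adjusted p and implied EpiLSC levels of 0.63 and 1.33. Against the same 7.67% over all genes, 3 of 7 fibroblast or feeder markers rose (1 when the mean had to reach 100), and the list summed to 103 in nESC and 474 in EpiLSC; of 4 primitive endoderm markers 1 rose (0 with that minimum, against a 2-fold change or with Holm adjustment), with sums of 99.1 and 163. Col3a1, Postn, Lum, Gata6 and Sox7 from these lists had no adjusted p. Their part in the values of Enc1 and Ptbp2 was not tested.

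Set in order of level per kilobase of exon, the nESC values were 5355 for Hnrnpk, 3700 for Lncenc1, 1356 for Ptbp3, 1313 for Ptbp1, 351 for Enc1 and 331 for Ptbp2. With the union of exons as the length, the intervals of Hnrnpk and Lncenc1 overlapped, as did those of Ptbp3 and Ptbp1. Those of Enc1 and Ptbp2 overlapped too, while the 3 pairs were apart from each other. These pairs do not hold for every choice of length. The longest transcript had 2970 bases against 6466 in the union for Hnrnpk, and 4047 against 9175 for Ptbp2. In EpiLSC the order was Hnrnpk (7471), Ptbp1 (1268), Enc1 (1191), Ptbp2 (912), Ptbp3 (791) and Lncenc1 (70.1). There the 4 middle genes overlapped in their intervals, with Hnrnpk above and Lncenc1 below all of them. With these lengths Lncenc1 went from the 2nd place to the last, and no other of the 6 genes crossed more than 2 places. The places and overlaps depend on the length used, here the union of exons. With the longest transcript, Ptbp1 (46.8% of the Ptbp level) stood above Ptbp3 (35.3%) in nESC. In EpiLSC, Ptbp2 (42.8%) then stood above Ptbp1 (39.3%).

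**Figure D5:**
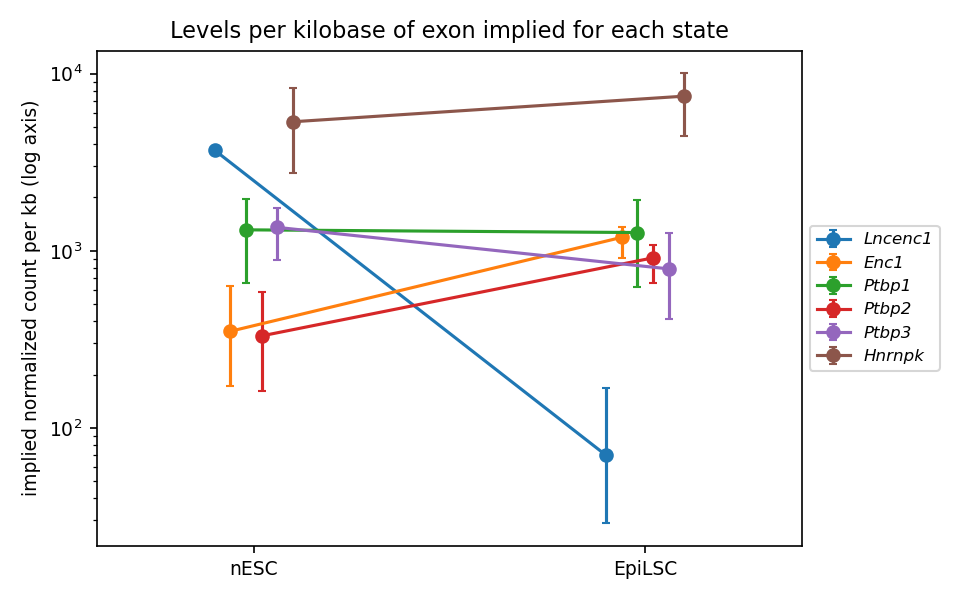
Implied normalized count per kilobase of exon (vertical, log axis) of the 6 genes in nESC and EpiLSC, joined by lines. The length is the union of exons, and the order of the genes depends on that choice. Bars are 95% intervals that cover the error of the fold change only. Lncenc1 drops from 3700 to 70.1 through the other lines, while Hnrnpk stays on top at 5355 and 7471.

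How well the reads can be placed differed between the genes. Of the stretches of 50 bases in the longest annotated transcript, 0 were shared with the transcripts of another gene on either strand for Lncenc1, Enc1 and Ptbp2. For Hnrnpk 37.8% were shared, mostly with the processed pseudogenes Gm7964 and Gm4130 and with Rmi1. For Ptbp1 the share was 22.6%, mostly with the antisense gene Gm17134, the processed pseudogene Gm4900 and the coding gene Plppr3, and for Ptbp3 it was 2.25%. How the counting treated such reads and the strand is not given in the sources used here, so the values of Hnrnpk and Ptbp1 are uncertain in this respect.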

How the data were processed

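RNA from 4 mouse samples, 2 nESC and 2 EpiLSC, was made into strand-specific libraries after removal of ribosomal RNA, per the labels. The submitters' processing notes name TopHat2, HTSeq, DESeq2 1.8.2 and the build mm9; no label or header states the gene annotation, strand setting or fitted model. The authors' mean, headed baseMean, was read as the DESeq2 signal of that name: counts divided by size factors and averaged over the libraries. The deposited log2 fold changes and standard errors were taken to come from DESeq2, which the processing notes name and the file headers do not. The deposited Wald score equals their quotient (largest gap 5.9e-14), and recomputing the authors' adjusted p-value from the p-values gave a largest gap of 2.3e-15. The sum of means was 27888600; reads per sample were not analysed here.

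Calls are the deposited ones, over 16361 genes; the other 3935, with means up to 3.74, had no adjusted p. No new test of a gene was made except in the alternatives. With mean m, the nESC level is 2m divided by 1 plus the fold change and the EpiLSC level the rest of 2m, which weights the libraries equally. Intervals are 95% normal intervals. Levels under 3 are described as resting on few reads. Names, lengths (union of exons), order and transcripts came from GENCODE M21 (GRCm38), matched without the ID version for 20167 genes, with 129 unnamed; only RefSeq promoter windows carry coordinates, on GRCm38.p6 and not the authors' build.

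The genes and lists were chosen with earlier results of these data known. Named genes are the 6; annotated genes within 3 places of Enc1 or Lncenc1; the 2 called genes of smallest p in each direction of a list, or the 1 of smallest p; and the 5 nearest to Lncenc1. Nsa2, Gm10260, Arhgef28, Klhl4, Klhl7 and other list members were chosen with their values in view. Some genes that the rule names are not reported here. The p-value adjustments were tested on simulated data. Python 3.11.15, scipy 1.17.1 and pandas 2.3.3 were used.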

Additional observations from a re-analysis of the deposited data

How the results depend on the processing

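Over 6 alternatives Lncenc1 stayed called and Ptbp1, Ptbp2, Ptbp3 and Hnrnpk stayed uncalled. The adjusted p of Lncenc1 ranged from 8.58e-16 to 2.19e-10, and that of Ptbp2 from 0.14 to 1. Of the 6 genes 2 were called with no filter on the mean, when the mean had to reach 100, and after recentring on the median of all tested genes or of those whose mean reached 1000. Tested against a 2-fold change, or with Holm adjustment, 1 was called, since Enc1 lost its call (adjusted p 1 in both); both alternatives are stricter by construction. Among all genes the calls numbered 1130 against a 2-fold change (628 rose, 502 fell), 716 with Holm adjustment (385 rose, 331 fell) and 1251 when the mean had to reach 100 (636 rose, 615 fell), where fewer genes were tested, against 2274 as deposited. Recentring moved log2 values by 0.02 at most. With the longest transcript as the length, the EpiLSC share of Ptbp2 moved from 30.7% to 42.8%. No paired analysis was possible because the table holds no values per sample; leaving out samples and another count tool were not run for the same reason. The smallest standard error was 0.61, and no log2 change under 1.68 was called. Median standard errors were alike among genes near the mean of Enc1 (0.67) and near that of Hnrnpk (0.69); what depth limits was not analysed here.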

Other observations

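Glycolysis, the process in the series title, was read from a list of 21 genes, beside the fall of Lncenc1. Of these 1 rose and 4 fell, with a median log2 fold change of 0.15 against 0.02 over all genes tested, and 16 were not called. Over all genes 7.67% rose and 6.23% fell. Against a 2-fold change, and likewise with Holm adjustment, 0 of the 21 rose and 1 fell. The phosphofructokinase gene Pfkp went from an implied 16990 normalized counts in nESC to 1615 in EpiLSC, and the glucose transporter gene Slc2a3 from 40312 to 5752. The lactate transporter gene Slc16a3 had implied levels of 278 and 1812. Pfkp and Slc2a3 fell and Slc16a3 rose in the authors' deposited table.

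Mir124a-1hg is a host gene of miR-124, a microRNA known to repress Ptbp1 in neurons, and was looked at after its value was seen. It fell by 6.05 in log2 units (SE 1.16, adjusted p 6.42e-06 by DESeq2) in the authors' deposited table, from an implied 157 normalized counts to 2.37, which rests on few reads. Another host gene, Mir124-2hg, had 8.27 and 27.9. The authors' deposited table put its log2 change at 1.76 (SE 1.20), not called. Mature microRNAs were not measured by these libraries.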
